A study of Rattus norvegicus with 2 samples.

Results

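The rat MHC class II genes measured here were RT1-Da, RT1-Db1, RT1-Ba, RT1-Bb, RT1-DMa, RT1-DMb, RT1-DOa, RT1-DOb, Cd74 and Ciita, which are 10 of the 26976 gene symbols in the deposited count matrix. They were chosen by symbol, with earlier results of these data known. The series was made to learn how a cell patch acts on immune cells in infarcted rat hearts. Wild-type rats (genotype wt per the labels) had a myocardial infarction (group MI), or an infarction and a patch (group MI+PUR-hAESC), a polyurethane scaffold carrying human amniotic epithelial stem cells. Leukocytes were sorted by the surface protein CD45 from left ventricles, infarct and border zone together, 7 days after surgery, with 1 sample in each group, and single-cell 3′ libraries were made on the 10x platform. The labels used here give no strain, age or number of rats per sample.

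The matrix held 2 libraries, which differ in the suffix of their cell barcodes and are called library 1 and library 2. Which suffix belongs to which group is not given in the sources used here, so differences between the libraries say nothing about the patch. With 1 library on each side there is no replicate and no test. Ranges in parentheses are exact 95% intervals (Poisson for counts, Clopper-Pearson for shares), which cover counting error only.

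MHC class II molecules sit on antigen-presenting cells and show peptides from the endosomes to CD4 T cells. In the rat the RT1-B and RT1-D molecules each pair an alpha chain with a beta chain. The invariant chain, encoded by Cd74, occupies the groove until the DM molecule exchanges its last fragment for a peptide, and the DO molecule, known from B cells, restrains DM. The coactivator Ciita acts on genes of the set at promoters that share an X box and a Y box. Resting macrophages are known to carry little class II and to gain it after interferon gamma, whereas dendritic cells and B cells carry it constitutively.

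That promoter module was looked for in the RefSeq promoters (rat build GRCr8), which were at hand for 8 of the 10 members. The 7 RT1 genes among them matched the search, and Cd74 did not. Each stretch is written 5′ to 3′ on the strand of its gene. Capitals mark the core of the X box, searched as GNNAC, and the Y box, searched as GATTGG. In Cd74 they mark other letters, given below. RT1-DMb and Ciita are named only.
RT1-Da, chr20:4515327-4515374: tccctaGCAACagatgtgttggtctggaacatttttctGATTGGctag
RT1-Db1, chr20:4560234-4560280: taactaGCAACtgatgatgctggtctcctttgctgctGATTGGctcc
RT1-Ba, chr20:4576975-4577022: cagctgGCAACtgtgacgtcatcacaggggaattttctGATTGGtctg
RT1-Bb, chr20:4604171-4604217: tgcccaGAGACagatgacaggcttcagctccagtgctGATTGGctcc
RT1-DMa, chr20:4712391-4712438: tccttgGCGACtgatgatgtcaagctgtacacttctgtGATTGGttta
RT1-DOa, chr20:4758522-4758569: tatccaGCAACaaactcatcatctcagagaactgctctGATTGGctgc
RT1-DOb, chr20:4627598-4627642: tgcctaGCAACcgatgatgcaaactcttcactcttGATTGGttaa
Cd74, chr18:56526984-56527025: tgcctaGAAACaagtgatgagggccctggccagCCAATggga

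RT1-Da, RT1-Ba and Cd74 lie on the plus strand and the other 5 on the minus strand. The 7 RT1 promoters held the core and GATTGG with 24 to 27 bases between them, and 5 of the 7 had the core GCAAC, while RT1-Bb had GAGAC and RT1-DMa had GCGAC. In Cd74, GAAAC was followed after 22 bases by CCAAT, the core of a Y box on the other strand. These letters were picked for Cd74 alone and were not searched among all promoters. Among all 33469 rat promoters of 300 bases in the table, searched on both strands, GATTGG was in 14.8%. GNNAC followed after 24 to 30 bases by GATTGG was in 1.43%, and the same pair with GCAAC in 0.143%. The letters and the gap were read from the members first, so the match of the 7 RT1 promoters was set in advance. Beside it, the shares of all promoters are no measure of enrichment. A match describes letters in this window and shows no binding. In the same RefSeq table the 8 RT1 genes lie between positions 4515393 and 4758491 of chromosome 20, while Cd74 is on chromosome 18 and Ciita on chromosome 10.

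Library 1 held 14283 barcodes with a median of 3692 UMIs (unique molecular identifiers, 1 per captured transcript), and library 2 held 15666 barcodes with a median of 4367.5 UMIs. After filters and removal of called doublets, 13334 and 14434 cells were kept, and 71 barcodes occurred under both suffixes. Cells were gated by marker genes, none of them a class II member, and 20135 cells fell into exactly 1 gate. The dendritic gate, defined by genes such as Flt3, Zbtb46, Clec9a and Clec10a, held 170 cells in library 1 and 164 in library 2, and the B gate (Cd79b, Ms4a1 and others) held 834 and 1735. The macrophage gate (C1qa, Mertk, Mrc1 and others) held 1174 and 1088 cells, the monocyte gate (Fcnb, Vcan, F13a1 and others) 761 and 540, and the T gate (Cd3e and others) 1786 and 2891. NK cells (1180 and 1937) and neutrophils (4041 and 1689) served as cells in which little class II is known. Of the listed markers, 8 and 7 of 12 reached 20 CPM (UMIs of a gene scaled to a fixed total of UMIs in the gate) in the dendritic gate, where Cd209a was at 0, against 6 of 6 measured in B, 10 of 10 in macrophages, 5 of 6 measured in monocytes and 6 of 6 in T. The macrophage markers summed to 653 and 650 CPM in the dendritic gate, against 13774 and 15056 in the macrophage gate. Of these markers, 6 of 10 reached 20 CPM in the dendritic gate of each library. The dendritic gate took no cell with 5 macrophage markers, so its lower macrophage sums are partly set by that rule. Of 4 measured endothelial markers, 3 reached 20 CPM in the dendritic gate of each library, with sums of 199 and 220 CPM. The part of such cells in the class II values was not tested.

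Class II transcripts made up a large part of the RNA of dendritic and B cells and a small part elsewhere. The 10 members together were 4.58% of all UMIs of the dendritic gate in library 1 and 4.57% in library 2, and 2.67% and 2.67% in the B gate. They were 1.19% and 1.51% in macrophages, 0.389% and 0.332% in monocytes and 0.112% and 0.0996% in T cells. NK cells, at 0.0668% and 0.0619%, and neutrophils, at 0.0627% and 0.0460%, were lowest. The dendritic gate thus stood 1st in both libraries by a margin far outside the counting intervals.

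Cd74, the invariant chain, had the highest CPM of the members in each of the 5 gates from dendritic to T cells. Its level was 15645.5 and 16496 CPM in dendritic cells (library 1, then library 2, here and below), 11023 and 10716 in B cells, 5297 and 6888 in macrophages, 1728 and 1538 in monocytes and 435 and 386 in T cells. RT1-Da, the RT1-D alpha chain, was at 12724 and 12053 CPM in dendritic cells, 6906 and 7082 in B cells, 2942 and 3688 in macrophages, 1121 and 849 in monocytes and 258 and 214 in T cells. Both genes had 1 order, dendritic over B over macrophage over monocyte over T, with no overlap of intervals between neighbours in either library.

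The other classical chains kept that order over the same 5 gates. RT1-Db1, the RT1-D beta chain, was at 10962 and 10432 CPM in dendritic cells, 5211 and 5028 in B cells, 2305 and 2674 in macrophages, 572 and 494 in monocytes and 287 and 263 in T cells. RT1-Ba, the RT1-B alpha chain, was at 5555 and 5441 CPM in dendritic cells, 2772 and 2966 in B cells, 1160 and 1557 in macrophages, 403 and 360 in monocytes and 114 and 108 in T cells. Its partner RT1-Bb was counted far less, at 722 and 1051 CPM in dendritic cells, 396 and 496 in B cells, 162 and 284 in macrophages, 59.1 and 66.0 in monocytes and 16.8 and 19.8 in T cells. Below T cells the order was less settled: the intervals of neutrophils and NK cells overlapped for RT1-Da and RT1-Bb in both libraries.

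Of 8 members at 20 CPM or more in either gate, of which RT1-DOa, RT1-DOb and Ciita passed only through the dendritic gate and so had to be higher there, 8 were more than 1.5-fold higher in the dendritic than in the macrophage gate in library 1, where 13.3% of all genes tested passed in that direction and 13.4% in the other. In library 2 it was again 8 of 8, where 9.95% of all genes passed and 9.72% in the other direction. The log2 ratio of RT1-Da was 2.11 and 1.71, and that of Cd74 was 1.56 and 1.26 (log2 of CPM + 10, here and below). Macrophages stood above monocytes by more than 1.5-fold in 5 of 5 members tested in library 1 (13.1% of all genes passed in that direction) and 5 of 5 in library 2 (11.0%). RT1-Db1 had the widest gap of these in both libraries, at log2 1.99 and 2.41.

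**Figure D1:**
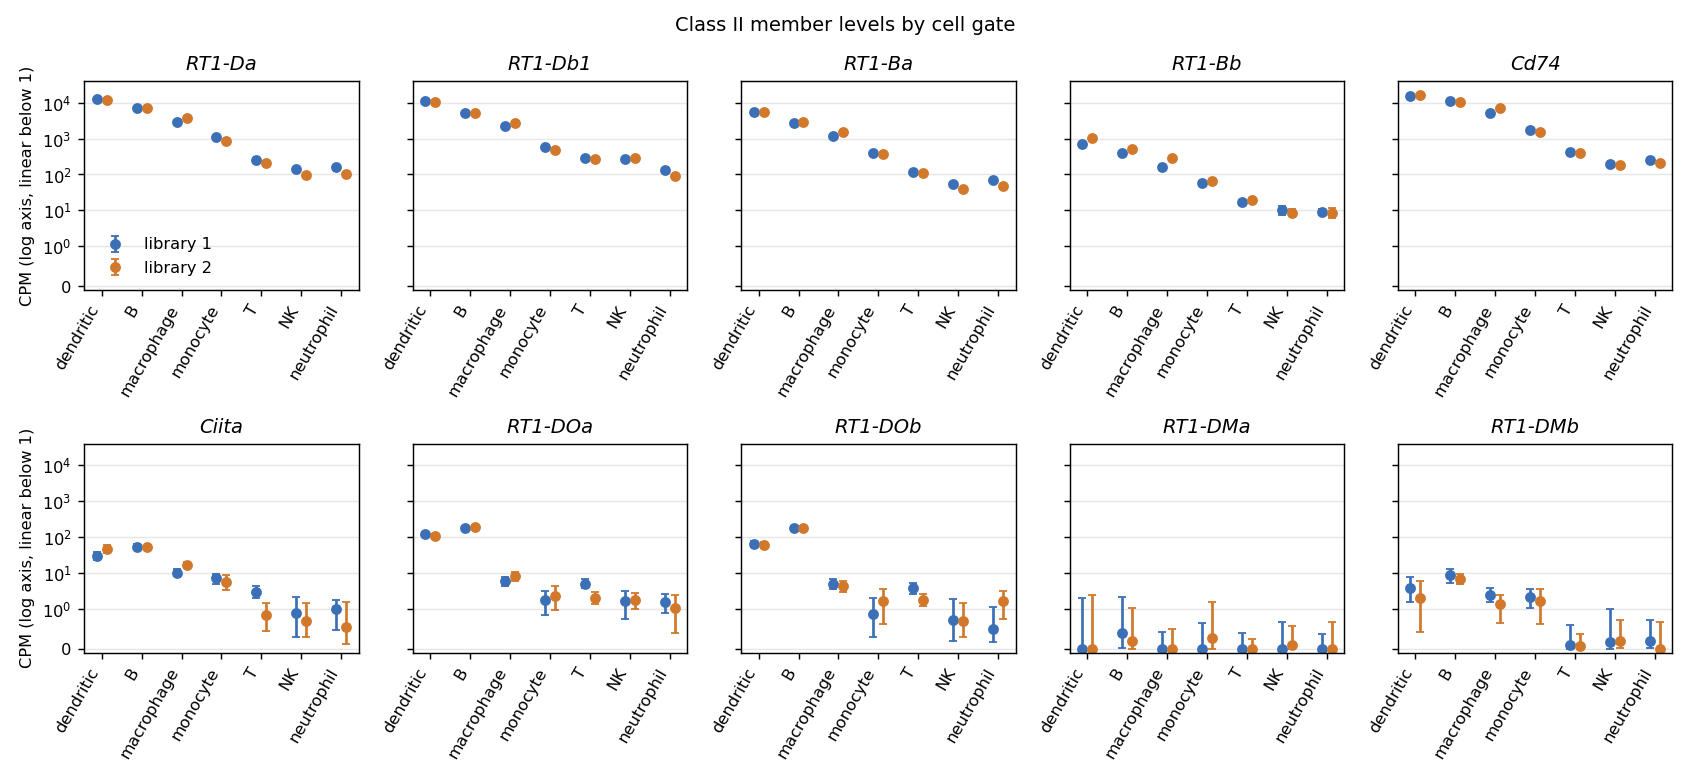
Level of each class II member (CPM, log axis that turns linear below 1) in 7 cell gates, with library 1 in blue and library 2 in orange. Points are levels from summed counts and bars are exact Poisson intervals; the classical chains and Cd74 step down from dendritic cells to T cells, RT1-DOa, RT1-DOb and Ciita are highest in B cells, and RT1-DMa sits at or near 0 in every gate.

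The DO chains and Ciita had another order, with B cells on top. RT1-DOa, the DO alpha chain, was at 183 and 198 CPM in B cells, 121 and 104 in dendritic cells and 5.85 and 8.04 in macrophages. RT1-DOb, the DO beta chain, was at 184 and 181 CPM in B cells, 64.7 and 60.3 in dendritic cells and 4.92 and 4.36 in macrophages. The intervals of B and dendritic cells lay apart for both genes in both libraries, so the DO chains were highest in the B gate.

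Ciita, the coactivator, was at 54.1 CPM (45.4 to 63.9) in B cells and 30.7 (23.2 to 39.8) in dendritic cells of library 1. In library 2 it was at 51.6 (45.6 to 58.1) and 46.8 (36.4 to 59.2), where the intervals overlapped. Macrophages had 10.3 and 16.9 CPM, monocytes 7.08 and 5.64, and T cells 3.02 and 0.851. Ciita was thus ordered B, dendritic, macrophage and monocyte in both libraries, although macrophages and monocytes overlapped in library 1.

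Between B and dendritic cells the members split. In library 1, RT1-DOb and Ciita were more than 1.5-fold higher in B cells (2 of 8 tested, with 31.2% of all genes past that fold) and RT1-Da, RT1-Db1, RT1-Ba and RT1-Bb were more than 1.5-fold lower (4 of 8, with 22.3% of all genes). In library 2, RT1-DOa and RT1-DOb were higher (2 of 8, with 28.7% of all genes) and the same classical chains and Cd74 were lower (5 of 8, with 23.8%). The shares of all genes past the fold were large in both directions, so the counts of members alone set the class II genes little apart. The log2 ratio of RT1-DOb, B over dendritic, was 1.44 in library 2, against -0.77 for RT1-Da.

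The DM chains were almost uncounted in this matrix. RT1-DMa had 0 UMIs in dendritic cells of both libraries, with exact upper limits of 2.02 and 2.50 CPM, and 1 UMI in B cells of each library. RT1-DMb, the DM beta chain, had 22 and 36 UMIs in B cells, or 8.68 and 6.92 CPM, and 7 and 3 UMIs in dendritic cells. Macrophages had 21 and 10 UMIs of it and monocytes 12 and 6. At this depth the ratio of RT1-DOb to RT1-DMb could not be told apart between B and dendritic cells, since its intervals were 13.9 to 34.2 and 7.93 to 42.8 in library 1. No DM level is read from these values.

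A pair of other class II symbols outside the members was also low. RT1-Db2, a near relative of RT1-Db1 by name, had 36 and 32 UMIs in dendritic cells and 48 and 125 in B cells, and RT1-Ha had 34 and 12 and then 45 and 106. How reads of RT1-Db1 and its relatives were divided is not given in the sources used here, so the level of RT1-Db1 is uncertain to that extent.

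Gates differed in how many of their cells carried class II and in how much these cells had. To compare cells at 1 depth, each was thinned to 1500 UMIs, which left out 5 and 4 dendritic cells and 37 and 39 B cells. B cells were uniform, with a median of 41 class II UMIs in each library, and 99.4% and 99.6% of them had 10 or more. Dendritic cells had medians of 72 and 76, and among them 89.1% (83.3 to 93.4) and 81.2% (74.3 to 87.0) had 10 or more.

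Macrophages were mixed. None of their 1500 UMIs was a class II UMI in 44.5% of macrophages of library 1 and 29.1% of library 2, while 32.7% (29.9 to 35.5) and 46.3% (43.2 to 49.3) had 10 or more. Among these the median was 46 and 41, close to that of B cells. The share was higher in library 2, while the median within cells chosen by that count cannot tell a change in the number of such cells from a change in level.

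Monocytes with 10 or more class II UMIs made up 15.4% (12.9 to 18.2) and 11.7% (9.05 to 14.7), with a median of 23.5 and 23 within them. In T cells the share was 1.75% and 1.06%, in NK cells 0.345% and 0.631%, and in neutrophils 0.450% and 0.573%. The neutrophil share is the level found in cells that should lack class II, at median depths of 2241 and 2585 UMIs before thinning, against 6971 and 6441.5 for macrophages. The macrophage and monocyte shares lay above it in both libraries.

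**Figure D2:**
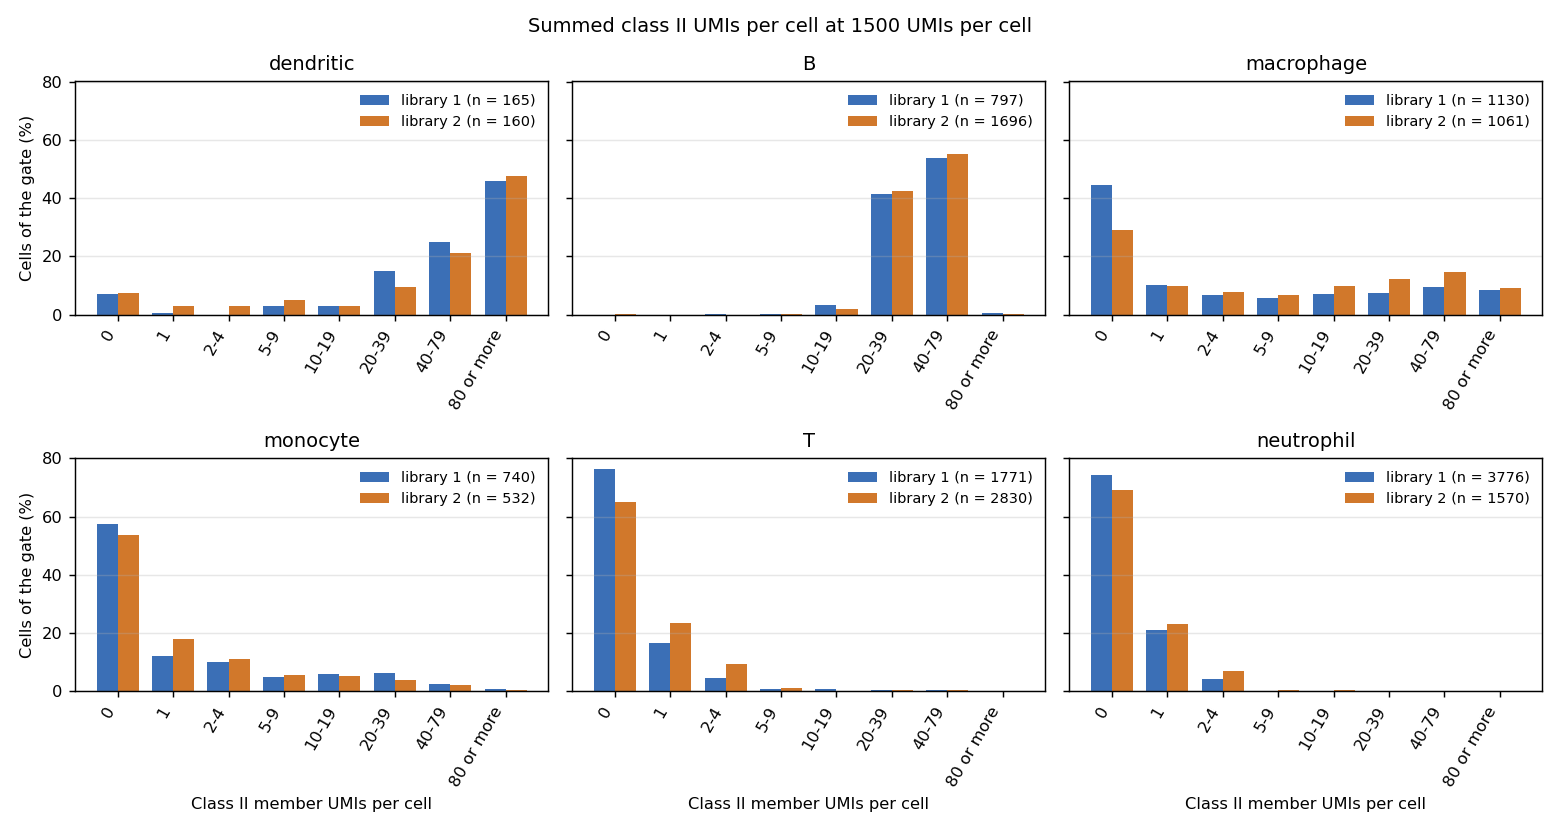
Share of cells (%) by the number of summed class II UMIs per cell after thinning to 1500 UMIs, in 6 gates, with library 1 in blue and library 2 in orange and n cells in each legend. B cells form 1 peak at 20 to 79 UMIs, macrophages spread from 0 to 80 or more, and T cells and neutrophils lie mostly at 0 or 1.

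A few cells carried much of the class II RNA of the low gates. The 1% of cells with the most class II UMIs held 71.1% and 63.5% of all class II UMIs of the T gate and 71.5% and 50.3% of those of the neutrophil gate. The same 1% held 56.1% and 39.6% in NK cells and 20.4% and 26.7% in monocytes. In macrophages they held 9.39% and 8.14%, in dendritic cells 3.68% and 3.95% and in B cells 3.19% and 2.80%. Without them the summed level of T cells went from 1122 to 333 CPM and from 996 to 372 CPM, so the class II level of the T gate rests on 18 and 29 cells. Called doublets had been left out before.

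In the dendritic gate, 5 of 170 cells and 3 of 164 had no class II UMI at full depth. With 3 markers needed in place of 2, this was 0 of 53 and 1 of 46. Across cells of a gate the classical genes went together where cells differed widely: the Pearson correlation of RT1-Da with Cd74, on log2 of UMI + 1 at 1500 UMIs, was 0.89 and 0.91 over 165 and 160 dendritic cells. It was 0.91 and 0.90 over 1130 and 1061 macrophages and 0.83 and 0.80 over 740 and 532 monocytes. In B cells it was 0.36 and 0.30. Cells of a gate share a library, and these values describe the cells with no test.

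Macrophages that carried scar or resident markers had less class II than the rest of the gate. Cells with at least 2 of Lyve1, Folr2 and Cd163, markers of resident macrophages, had a summed class II level of 11664 CPM in library 1 (508 cells) and 13797 in library 2 (300 cells). Of the remaining cells, those with at least 3 of Spp1, Gpnmb, Trem2 and Fabp5, genes of lipid-laden scar macrophages, had 6875 (390 cells) and 10720 (393 cells). Macrophages with neither set had 24964 (276 cells) and 23713 (395 cells). The order, neither over resident over scar-marked, was the same in both libraries with no overlap of intervals.

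The share of cells with 10 or more class II UMIs followed that order. It was 49.6% (43.1 to 56.1) and 61.9% (56.7 to 66.8) in macrophages with neither set. In resident-marked cells it was 30.6% (26.6 to 34.8) and 39.7% (34.1 to 45.5). In scar-marked cells it was 23.9% (19.7 to 28.5) and 34.4% (29.7 to 39.4). The intervals of resident-marked and scar-marked cells overlapped in both libraries. In each of the 3 subsets library 2 was higher, with intervals that overlapped in resident-marked cells. The subsets also took different parts of the gate: resident-marked cells were 43.3% and 27.6% of it and cells with neither set 23.5% and 36.3%. Macrophages with neither set also had fewer UMIs, with a median of 4630 and 4909 against 7512 and 7080.5 in resident-marked cells, before thinning, and the part of depth in the sorting into subsets was not tested. Dividing macrophages, with at least 2 of Mki67, Top2a, Cdk1, Birc5 and Ccnb1, stood at 6044 (60 cells) and 7685 CPM (69 cells), below the 12304 and 15822 CPM of the others.

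The summed class II levels of the monocyte subsets differed between the libraries in opposite directions. Classical monocytes, with at least 2 of the markers Fcnb, Vcan, F13a1 and Thbs1 and no Adgre4, Ace or Cd300e, had 3002 CPM in library 1 (424 cells) and 4220 in library 2 (192 cells). Non-classical monocytes, with Adgre4, Ace or Cd300e and fewer than 2 classical markers, had 6800 (130 cells) and 1406 (207 cells). After thinning, 20 of 129 non-classical cells (15.5%, 9.73 to 22.9) of library 1 and 7 of 206 (3.40%, 1.38 to 6.88) of library 2 had 10 or more class II UMIs. The shares of the non-classical subset thus rest on 20 and 7 cells. In classical monocytes 13.8% (10.6 to 17.6) and 17.8% (12.6 to 24.1) had 10 or more, and these intervals overlapped. Markers of other cells were also counted in the monocyte gate. Of the fibroblast list 3 of 5 reached 20 CPM in each library, with sums of 585 and 747 CPM. The neutrophil list (4 and 3 of 10) summed to 983 and 1200 CPM and the macrophage list (5 and 7 of 10) to 432 and 493 CPM. Their part in the class II values was not tested.

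**Figure D3:**
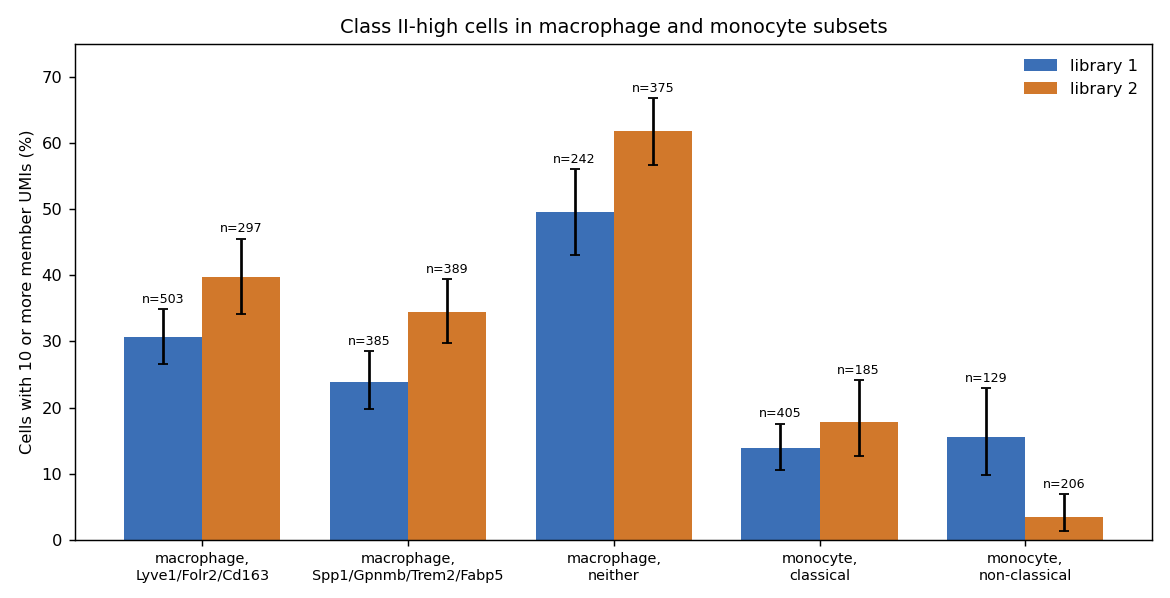
Share of cells (%) with 10 or more class II UMIs at 1500 UMIs per cell, in macrophage and monocyte subsets, with library 1 in blue, library 2 in orange, exact 95% intervals as bars and n cells above them. The 3 macrophage subsets are higher in library 2, with overlapping intervals in the Lyve1/Folr2/Cd163 subset. Non-classical monocytes are at 15.5% in library 1 and 3.40% in library 2.

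In the dendritic gate, 17 and 14 cells had at least 2 of Xcr1, Clec9a and Cadm1, markers of the cross-presenting lineage. Their summed class II level was 56892 and 68875 CPM. This was above the 44189 and 43887 CPM of the 149 and 147 cells with neither this set nor the set of mature cells. Cells with this set also had more UMIs, with a median of 14825 and 12451.5 against 10153 and 8012. The part of depth in this sorting was not tested. Only 4 and 3 cells carried at least 2 of Ccr7, Fscn1, Ccl22 and Il12b, markers of mature dendritic cells, so nothing is read from their levels. The plasmacytoid gate held 20 and 11 cells, in which the members were 1.17% and 1.09% of UMIs. In library 1, 1 cell held 41.8% of these, and without it the sum went from 11722 to 7310 CPM. Cardiomyocyte markers summed to 1882 CPM in that gate of library 1 and endothelial markers to 1180 CPM in library 2, beside 1086 and 1195 CPM for its own list, so nothing is read from its levels.

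Ratios between members leave out the total RNA of a gate. Counts of a 3′ library hold 1 tag per transcript end and do not grow with transcript length, but capture can differ between genes, so ratios are compared between gates and libraries and not read as amounts of 1 chain against the other. RT1-Ba per 1000 RT1-Da lay between 359 and 504 in the 7 gates and Cd74 per 1000 RT1-Da between 1230 and 1955. In dendritic cells the latter was 1230 (1208 to 1251) and 1369 (1342 to 1395), the lowest of the 7 gates in each library, with the next intervals starting at 1262 in NK cells of library 1 and at 1493 in B cells of library 2.

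RT1-Db1 per RT1-Da was higher in T and NK cells than in the other gates. It was 862 and 866 per 1000 in dendritic cells, 755 and 710 in B cells, 783 and 725 in macrophages and 829 and 833 in neutrophils. Monocytes had 510 (489 to 532) and 582 (549 to 618), the lowest of the 7 gates. T cells had 1116 and 1228, and NK cells had 1908 (1748 to 2084) and 2989 (2777 to 3221). In NK cells RT1-Db1 was at 267 and 287 CPM, while RT1-Da was at 140 and 96.1 CPM.

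The excess of RT1-Db1 in NK cells was spread over many cells. Without the 1% of cells with the most class II UMIs, the ratio in NK cells was 6198 (5258 to 7343) and 6609 (5899 to 7423) per 1000, against 1633 and 2099 in T cells and 873 and 903 in neutrophils. At 1500 UMIs, RT1-Db1 was counted in 25.3% and 28.2% of NK cells, against 5.80% and 7.83% of neutrophils. Among cells with no UMI of RT1-Da, RT1-Ba, RT1-Bb or Cd74, RT1-Db1 was counted in 24% (21.4 to 26.8) and 28.2% (25.9 to 30.5) of NK cells, 7.43% and 12.4% of T cells, 4.81% and 6.62% of neutrophils and 2.68% and 3.73% of macrophages. The reverse, RT1-Da alone, was found in 3.90% and 4.66% of NK cells and 5.96% and 6.70% of neutrophils. The ratio of RT1-Db1 to RT1-Da thus differed between NK cells and neutrophils of 1 library beyond counting error. In the NK gate 0 of 6 measured B markers and 0 of 12 dendritic markers reached 20 CPM. The sums were 20.7 and 17.6 CPM for the B list and 20.4 and 18.2 CPM for the dendritic list. The NK gate took no cell that also met the rule of the B or dendritic gate, so these low values are partly set by that rule. The part of B or dendritic cells in the RT1-Db1 values was not tested.

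DO relative to the classical chains was higher in B cells than in the other antigen-presenting gates. RT1-DOb per 1000 RT1-Da was 26.7 (24.3 to 29.3) and 25.6 (23.96 to 27.30) in B cells, 5.08 and 5.004 in dendritic cells and 1.67 and 1.18 in macrophages. In T cells it was 14.6 (10.2 to 20.4) and 8.56 (5.68 to 12.4), from 35 and 28 UMIs, and in neutrophils of library 2 it was 15.5 (7.05 to 29.6), which overlapped B cells. RT1-DOa per 1000 RT1-DOb was 994 and 1092 in B cells and 1864 (1484 to 2352) and 1730 (1324 to 2272) in dendritic cells. Dendritic cells thus had relatively more alpha than beta DO chain than B cells in both libraries. Ciita per 1000 RT1-Da was 7.83 and 7.28 in B cells, 2.41 and 3.88 in dendritic cells and 3.50 and 4.58 in macrophages.

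**Figure D4:**
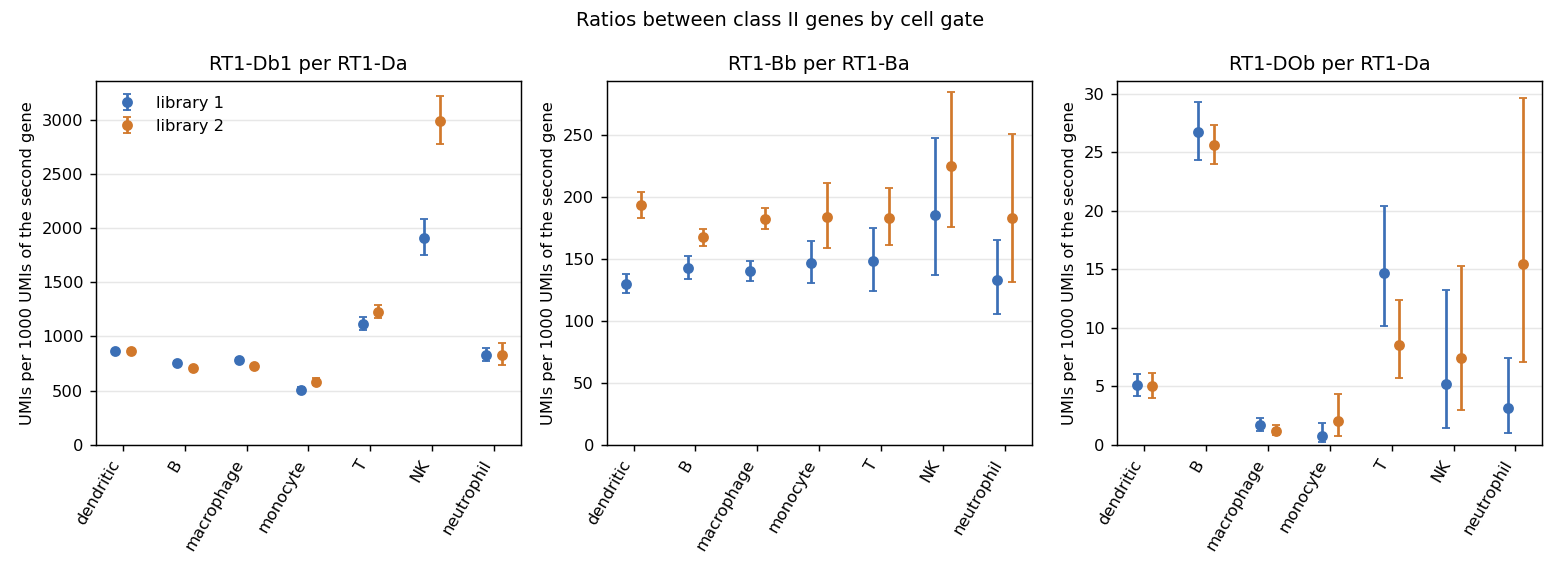
Ratios between class II genes, as UMIs of the first per 1000 UMIs of the second, in 7 gates, with library 1 in blue, library 2 in orange and exact 95% intervals as bars. RT1-Db1 per RT1-Da is highest in NK cells, RT1-Bb per RT1-Ba is higher in library 2 in each gate, and RT1-DOb per RT1-Da is highest in B cells.

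Between the libraries, summed class II differed by less than counting error in dendritic and B cells and by more in macrophages. The summed level of the 10 members was 45828 and 45687 CPM in dendritic cells, a log2 ratio of library 2 over library 1 of -0.0044 (-0.019 to 0.010). In B cells it was 26738 and 26726 CPM, a log2 ratio of -0.00064 (-0.014 to 0.013). In macrophages it was 11890 and 15121 CPM, a log2 ratio of 0.35 (0.33 to 0.36). The median over members at 20 CPM or more was 0.38 in macrophages (5 members), beside 0.04 over all 5419 genes tested there, and -0.05 in dendritic cells and 0.01 in B cells (8 members each).

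In the whole macrophage gate each of the 5 members tested was higher in library 2. The log2 ratio was 0.38 for Cd74, 0.33 for RT1-Da, 0.21 for RT1-Db1, 0.42 for RT1-Ba and 0.77 for RT1-Bb. Of these, RT1-Bb passed 1.5-fold (1 of 5), where 2.84% of all genes passed in that direction and 0.941% in the other. Ciita, with 88 and 124 UMIs in macrophages and under 20 CPM, had a log2 ratio of 0.41. The direction did not hold for each member in each subset. In macrophages with neither marker set RT1-Da was at 6285 and 5763 CPM and RT1-Db1 at 5033 and 4168, both lower in library 2. There the intervals of the libraries overlapped for RT1-Ba (2534 and 2506), Cd74 (10716 and 10831) and RT1-Bb (347 and 396). Cd74 and RT1-Bb had the higher level in library 2. This subset with high class II was a larger part of the gate in library 2. In resident-marked and scar-marked cells RT1-Da was higher in library 2, at 2837 and 3318 CPM and at 1719 and 2661 CPM. Macrophage markers summed to 13774 and 15056 CPM in the same gate. Dendritic markers summed to 687 and 760 CPM there, against 1240 and 1546 CPM in the dendritic gate. Of the 12 dendritic markers, 1 reached 20 CPM in macrophages of each library, and 7 and 6 were at 0. The macrophage gate took no cell with 2 dendritic markers, so these zeros are partly set by that rule. Erythroid markers also differed: of 3 measured, 0 reached 20 CPM in macrophages of library 1 and 2 in library 2, with sums of 7.37 and 823 CPM. They also summed to 1.58 and 670 CPM in B cells and to 4.78 and 1292 CPM in neutrophils, and their part in the class II values was not tested.

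In the other gates no member passed 1.5-fold. This was 0 of 8 in dendritic cells (5.34% of all genes higher in library 2 and 2.24% in library 1), 0 of 8 in B cells (0.814% and 0.726%), 0 of 5 in monocytes (8.01% and 3.39%) and 0 of 4 in T cells (0.695% and 0.882%). In NK cells it was 0 of 4 (1.92% and 1.22%) and in neutrophils 0 of 4 (4.5% and 5.08%). The summed log2 ratio was -0.23 in monocytes (3895 and 3318 CPM) and -0.17 in T cells (1122 and 996 CPM). Neither direction held: with 1 more marker needed, monocytes were at 0.20, and without the 1% of cells with the most class II UMIs, T cells were at 0.16. Fewer cells of a kind within a gate and less RNA per cell cannot be told apart in summed levels.

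RT1-Bb stood apart from its partner in each gate. RT1-Bb per 1000 RT1-Ba was 130 (123 to 138) in library 1 and 193 (183 to 204) in library 2 in dendritic cells. It was 143 and 167 in B cells, 140 and 182 in macrophages, 147 and 184 in monocytes and 148 and 183 in T cells. The intervals lay apart in dendritic, B and macrophage gates and overlapped in monocytes and T cells. Library 2 was the higher in each of the 5 gates, and in NK cells (185 and 225) and neutrophils (133 and 183). In library 2 RT1-Bb itself was higher by log2 0.54 in dendritic cells and 0.32 in B cells, where the summed members did not differ. The shift held under the alternative cell filters, except that it was -0.09 in monocytes with 1 more marker needed.

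**Figure D5:**
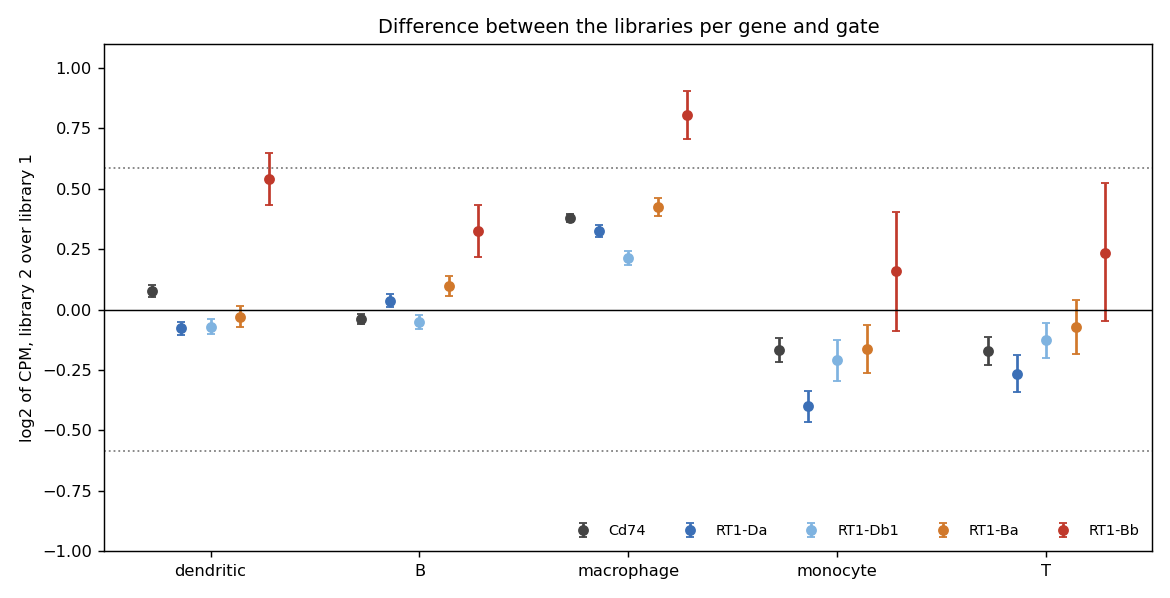
log2 ratio of CPM, library 2 over library 1 (no CPM added), of Cd74 and the classical chains in 5 gates, with bars from exact 95% intervals and dotted lines at 1.5-fold. RT1-Bb in macrophages is the only point beyond a dotted line, and RT1-Bb has the highest ratio in each gate.

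Genes that control or serve class II were read from 4 lists. Of the class II transcription list (regulators such as Rfx5, Spi1 and Irf8), 19 of 22 genes were in the matrix and 9 reached 20 CPM in macrophages. All 9 had the higher CPM in library 2 (median log2 ratio 0.37, beside 0.04 over all genes tested). The share of all genes with the higher CPM in library 2 was not counted. Irf1, an interferon-induced factor that acts on the Ciita gene, was the only one past 1.5-fold (2.84% of all genes), at 73.9 and 136 CPM. Irf8 was at 65.2 and 88.3 CPM and Spi1, the myeloid factor PU.1, at 303 and 341 CPM. In B cells 0 of 14 passed (median 0.08), with Irf1 at 157 and 178 CPM and Pax5, the B lineage factor, at 56.4 and 64.2 CPM. In dendritic cells 0 of 9 passed (median 0.24), and in T cells 0 of 10 (median 0.04). In monocytes 1 of 10 was higher in library 2 (8.01% of all genes, median 0.17).

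Among regulators of class II promoters, Rfxank, a subunit of the RFX complex that binds the X box, lay between 11.1 and 16.4 CPM in dendritic, B, macrophage, monocyte and T gates and was at 3.79 and 4.74 CPM in neutrophils. Rfx5 was at 27.2 and 41.7 CPM in B cells, 19.2 and 9.49 in dendritic cells and 30.1 and 29.5 in NK cells, where class II is low, and at 1.79 and 3.10 in neutrophils. Rfxap was at 0 in the 7 gates except for T cells of library 2, at 0.0655 CPM. Spib, a factor of B and plasmacytoid cells, was at 173 and 166 CPM in B cells and at 1.64 and 0.678 CPM in dendritic cells.

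Of the interferon gamma response genes, 8 of 12 tested in macrophages were more than 1.5-fold higher in library 2 (2.84% of all genes) and 0 in library 1 (0.941%). Their median log2 ratio was 0.81. Gbp2, a guanylate-binding protein, was at 25.6 and 79.7 CPM, and the chemokine gene Cxcl10 at 17.3 and 52.6. Tap1, the peptide transporter of class I presentation, was at 37.1 and 87.2 CPM and Psmb9, an immunoproteasome subunit, at 179 and 324 CPM.

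In monocytes 10 of 15 interferon gamma response genes were past the fold in the same direction (8.01% of all genes, median 0.76), with Cxcl9 at 0.885 and 137 CPM and Irf1 at 105 and 190 CPM. In dendritic cells 4 of 13 were higher (5.34% of all genes) and 1 lower (2.24%), with a median of 0.45: Cxcl9 was at 19.7 and 125 CPM, and Ifngr1, a chain of the interferon gamma receptor, at 607 and 338 CPM. In B cells 0 of 12 passed (median 0.06) and in T cells 0 of 14 (median 0.18).

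Of the processing list (endosomal proteases and other genes of the class II route), 0 of 17 were more than 1.5-fold higher in library 2 in macrophages. In the other direction 1 of 17 passed, beside 0.941% of all genes, and the median was -0.08. Ctsd, cathepsin D, was at 1356 and 843 CPM, and Ctsb, cathepsin B, at 1845 and 1295 CPM. Ctss, cathepsin S, which trims the invariant chain, was at 437 and 620 CPM, the opposite direction, though within 1.5-fold. In dendritic cells 1 of 17 was higher, a share near the 5.34% of all genes (median 0.20), with Ctss at 184 and 272 CPM. In monocytes 3 of 17 were lower (3.39% of all genes), with Ctsl, cathepsin L, at 1598 and 842 CPM. In B cells 2 of 16 were lower (0.726% of all genes), with Cst3, a cathepsin inhibitor, at 153 and 87.5 CPM. In T cells 1 of 16 was lower (0.882% of all genes).

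Of the costimulatory genes, 0 of 5 passed 1.5-fold in macrophages and 4 of 5 had the higher CPM in library 2 (median 0.26, beside 0.04 over all genes). Cd86, a ligand of CD28, was at 52.7 and 50.7 CPM and Icam1, an adhesion ligand, at 92.7 and 134 CPM. In dendritic cells 0 of 7 passed (median -0.08), with Cd83 at 276 and 348 CPM and Cd86 at 121 and 98.9 CPM. In B cells 0 of 5 passed, with Cd40 at 311 and 237 CPM and Cd83 at 1128 and 1150 CPM. In monocytes 2 of 6 were higher (8.01% of all genes) and 1 lower (3.39%), the lower being Cd80, at 65.5 and 21.4 CPM.

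Over 16 points (8 gates in each of 2 libraries), the genes whose levels were most like the mean of RT1-Da, RT1-Db1, RT1-Ba, RT1-Bb and Cd74 were Plekho1 (Pearson r 0.973), Csrp1 (0.958), Hipk2 (0.952), Dcun1d4 (0.938) and Ier5l (0.934), on log2 of CPM + 10 and with members and gate markers left out. Plekho1 was at 319 CPM in dendritic cells, 229 in B cells, 238 in macrophages and 40.9 in monocytes of library 1. The levels most like RT1-DOb were those of Blk (0.916), Sdad1 (0.912), Cd40 (0.905), Cd72 (0.895) and Ebf1 (0.889), of which Blk was at 99.0 CPM in B cells and 8.77 in dendritic cells of library 1. Ciita was followed most closely by Dnph1 (0.899), Cd72 (0.891), Swap70 (0.878), Cd40 (0.875) and Sdad1 (0.866). The points share libraries and gates, and the correlations carry no test. The 8 gates include the plasmacytoid gate of 20 and 11 cells, from whose levels nothing is read above. In it Ciita had 0 UMIs in each library and RT1-DOb had 1 and 2. The ranking without this gate was not tested.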

How the data were processed

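The authors deposited a matrix of unnormalized UMI counts by gene and cell barcode, which the file headers credit to Cell Ranger 4.0.0. The sources used here do not give the genome build, annotation or cell calling. In all there were 32623 gene lines, 29949 barcodes and 155309082 UMIs (72506643 and 82802439 per library), and counts of 1453 symbols on more than 1 line were summed, none of them a class II member. A deposited table of 33756 barcodes shared 111 with the matrix and was not used.

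A barcode was kept with 200 or more genes and no more than 20% of its UMIs from mitochondrial genes, which 315 and 235 barcodes failed. Scrublet in scanpy 1.11.5, applied to each library with 8% expected doublets, called 634 (4.54%) and 997 (6.46%) doublets at score cut-offs of 0.274 and 0.247, and these were left out. A cell entered a gate with 2 markers of the dendritic, B, monocyte, plasmacytoid, NK or thymocyte list, 3 of the T or neutrophil list or 5 of the macrophage list, and if no other gate took it. Counts of gated cells were added up in each library and scaled to CPM by the total of the gate. Ratios between libraries are on the log2 scale after adding 10 CPM, with intervals from exact Poisson limits of the plain ratio. Genes with 20 CPM in either library were tested against 1.5-fold, a threshold of size with no p-value. Cells were thinned at random to 1500 UMIs for shares. Of each list up to 6 genes at 50 CPM or more with the largest ratio were eligible to be named, and the regulators of the promoter module were named for their role. The counting of genes past the fold was run on counts simulated with counting error only and with changes planted in random genes. That run checks the code and cannot check the calls made in these data. Python 3.11.15, numpy 2.4.6, scipy 1.17.1, pandas 2.3.3 and matplotlib 3.10.9 were used, with edgeR 4.0.16 for TMM-scaled totals.

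The members and lists were chosen with earlier results of these data known. Set after seeing the data were the number of markers per gate (for macrophages with class II levels under 4 and 5 markers in view), the subset rules, the threshold of 10 class II UMIs, the removal of the top 1% of cells, the RT1-Db1-alone shares, and the promoter letters and gap, which were read from the members first.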

Additional observations from a re-analysis of the deposited data

How the results depend on the processing

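The alternatives were 1 more gate marker, called doublets kept, 1 equal doublet cut-off, at most 10% mitochondrial UMIs, shared barcodes left out, a mean over cells of per-cell CPM, TMM-scaled totals and, added after seeing the data, leaving out the 1% of cells with the most class II UMIs. The summed log2 ratio of library 2 over library 1 in macrophages (0.35) was 0.32 as a mean over cells, 0.29 with TMM and 0.37 without the top cells. In dendritic cells (-0.0044) it was 0.011 with 1 more marker, -0.036 as a mean over cells and -0.054 with TMM, and in B cells (-0.00064) it was 0.025 as a mean over cells and 0.035 with TMM. In monocytes (-0.23) it was 0.20 with 1 more marker, -0.28 at 10% mitochondrial UMIs, -0.36 as a mean over cells, -0.36 with TMM and -0.35 without the top cells. In T cells (-0.17) it was -0.24 with 1 more marker, 0.059 as a mean over cells, -0.13 with TMM and 0.16 without the top cells. TMM moved all genes of the monocyte gate by -0.13. The cause of these moves was not tested.

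The counts of members past 1.5-fold stayed within 1.5 times under the alternatives run. The log2 ratio of RT1-DOb to RT1-DMb, B minus dendritic, had no settled sign: it was 0.33 in library 1 and -0.18 in library 2, -0.51 and 0.79 with 1 more marker, and -0.13 in library 1 as a mean over cells, all within the wide main intervals (-1.54 to 2.20 and -2.63 to 2.27). RT1-Db1 per 1000 RT1-Da in NK cells (1908 and 2989) was 2110 in library 1 with an equal doublet cut-off and 2706 in library 2 with called doublets kept. RT1-Bb per RT1-Ba moved beyond its interval in 1 of 25 values, the monocyte one. No paired analysis was possible because each group has 1 sample and no suffix is tied to a group. With 2 libraries no comparison has a replicate, and low counts limit RT1-DMa, RT1-DMb and Ciita outside B and dendritic cells.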
